A study of Mus musculus with 4 samples.

Results

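The genes described are 10 members of the transforming growth factor beta (TGF-β) system in bone marrow mesenchymal stromal cells (MSCs). They are the ligands Tgfb1, Tgfb2 and Tgfb3, the latent ligand carrier Ltbp1, the type II receptor Tgfbr2, the type I receptors Tgfbr1 and Acvrl1, the co-receptors Tgfbr3 and Eng, and the secreted glycoprotein Lrg1. They were chosen by their symbols from the 56980 genes listed in the count table, and each symbol matched a single gene.

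The study asked which molecules on adult MSCs could receive signals from macrophages, and named Tgfbr2 on MSCs as the receptor of macrophage Lrg1. Macrophage libraries were not analysed here. Each of the 4 libraries was made from 100 MSCs of a wild-type male C57BL/6J mouse, from a colony bred in-house, aged 14 weeks. The cells were sorted from bone marrow as CD45- Ter119- CD31- CD51+ PDGFRa+ Sca1-, so the gate was set to leave out blood cells, endothelial cells and Sca1+ stroma. All 4 mice form a single group with no treatment and no control group, so the comparisons below are between genes within the same library. The mice are called mouse 1 to mouse 4, as the labels number them.

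TGF-β is made as a precursor whose propeptide stays wrapped around the mature ligand. Latent TGF-β binding proteins such as LTBP1 tether this latent complex to the matrix, and integrins or proteases release the ligand. Released ligand binds the type II receptor TGFBR2, which recruits and phosphorylates a type I receptor. The usual type I receptor is TGFBR1, also called ALK5, which signals through SMAD2 and SMAD3. ACVRL1, also called ALK1, signals through SMAD1 and SMAD5 and is best known from endothelial cells. Betaglycan, the product of Tgfbr3, presents ligand to TGFBR2 and is needed most for TGF-β2, while endoglin, the product of Eng, is a co-receptor known for promoting ALK1 signalling. LRG1, a leucine-rich repeat glycoprotein, is known to bind endoglin and to modify TGF-β signalling. In bone, TGF-β stored in the matrix is known for recruiting stromal progenitors during remodelling.

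The members are related genes, and the balance between them can be read from short read pairs only where their sequences differ. The stretches that follow are the coding regions in which the type I receptors, and the ligands Tgfb1 and Tgfb3, have their longest unbroken shared run. They are shown because the ligand balance and the type I receptor balance described below depend on telling these genes apart. The capitals mark the longest run of identical bases in the coding sequences of each pair, and positions are given on GRCm38 from the GENCODE M21 transcripts, 5′ to 3′ on the strand of the gene.

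The type I receptors Tgfbr1 and Acvrl1 shared no coding run longer than 12 bases. The Tgfbr1 stretch holds bases 796 to 855 of 1512 coding bases and crosses the junction of exons 4 and 5 of 9 (chr4:47396576-47402852, plus strand, with the intron left out). The Acvrl1 stretch holds bases 784 to 843 of 1509 coding bases and lies in exon 8 of 11 (chr15:101137378-101137437, plus strand).
Tgfbr1: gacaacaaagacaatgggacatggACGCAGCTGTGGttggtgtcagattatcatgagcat
Acvrl1: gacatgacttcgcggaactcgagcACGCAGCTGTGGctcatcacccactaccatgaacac
Position by position, 32 of the 60 bases were identical (53.3%).

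The ligands Tgfb1 and Tgfb3 shared a coding run of at most 15 bases, in exon 7 of 7 of both genes, close to the end of the mature ligand. The Tgfb1 stretch holds bases 1098 to 1157 of 1173 coding bases (chr7:25704867-25704926, plus strand). The Tgfb3 stretch holds bases 1164 to 1223 of 1239 coding bases (chr12:86057796-86057855, minus strand).
Tgfb1: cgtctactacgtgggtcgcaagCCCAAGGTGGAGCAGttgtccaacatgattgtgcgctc
Tgfb3: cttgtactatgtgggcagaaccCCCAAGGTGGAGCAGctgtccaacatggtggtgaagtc
Of these 60 bases, 46 were identical (76.7%). Over the whole of the longest protein-coding transcripts, the longest shared run was 11 bases between Tgfbr3 and Eng, 13 bases between Tgfbr1 and Tgfbr2, and 24 bases between Ltbp1 and Ltbp2. A search for near-identical copies, which had to match at 95% or more of at least 100 bases, found no other member among the copies of any member.

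The 4 libraries held between 22738604 and 43545349 counts, with 16109 to 18907 genes detected. Levels are given as TPM, a count corrected for the merged exon length of the gene and scaled to a total of 1000000 in each library, so that genes of different length can be compared. All 6 genes that mark the sorted population (Pdgfra, Itgav, Cxcl12, Lepr, Prrx1 and Col1a1) were above 1 TPM in every mouse, with a summed level of 24565 to 31541 TPM, most of it Col1a1. Of the 3 antigens that were gated out, Ptprc, the gene of CD45, had 2, 2, 0 and 50 counts in mice 1 to 4, Pecam1, the gene of CD31, had 13, 11, 5 and 14 counts, and Ly6a, a gene of Sca1, had 1, 120, 0 and 144 counts. Ly6a was at 8.95 and 11.6 TPM in mice 2 and 4, with a median of 4.50 TPM, so its transcript was present in those libraries. The labels do not give a sorting or sequencing date for the mice.

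Most of the system was present. The median over the 4 mice was above 1 TPM, the cutoff used by the study, for 8 of the 10 members, against 44.2% of the 21922 protein-coding genes with a length. The members below it were Tgfb2 and Lrg1. Tgfb3, Tgfbr1, Tgfbr2, Tgfbr3, Eng and Ltbp1 were above 1 TPM in every mouse, which makes 6 of 10, against 30.1% of the protein-coding genes. By median the order was Tgfb3, Tgfbr3, Eng, Ltbp1, Tgfbr2, Tgfbr1, Acvrl1, Tgfb1, Lrg1 and Tgfb2. The medians ran from 26.8 TPM for Tgfb3, higher than the median of 88.3% of the protein-coding genes, to 0.00776 TPM for Tgfb2. In this order, 3 of the 9 steps between neighbours were larger than their SD between mice on the log2(TPM + 1) scale. Those were Tgfbr3 above Eng (0.44 ± 0.38), Tgfbr1 above Acvrl1 (0.96 ± 0.71) and Acvrl1 above Tgfb1 (1.31 ± 1.19). The steps from Tgfbr3 to Eng and from Tgfbr1 to Acvrl1 were smaller than their SD under some alternative settings. In mouse 4 the order of Acvrl1 and Tgfb1 rests on 2 and 1 counts, too few to set it. The other neighbours, including Ltbp1 and Tgfbr2 with a difference of -0.02 ± 1.12, were not separated beyond their spread. Tgfb3 was above Tgfbr3 in only 1 of 4 mice, with a mean difference of -0.23 ± 0.83, so the first place by median is not settled.

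**Figure D1:**
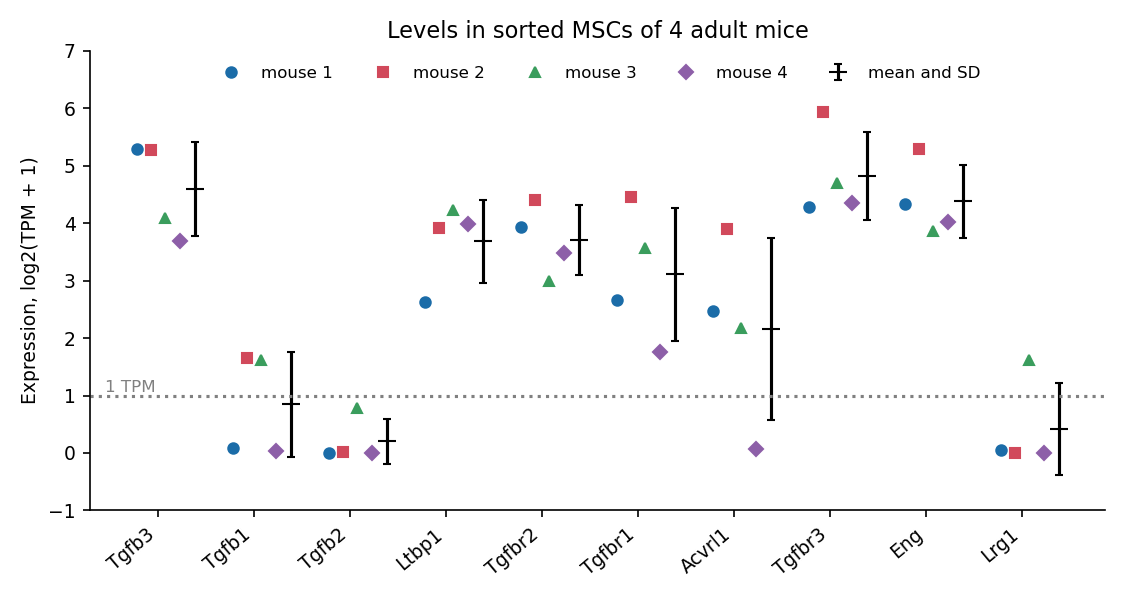
Level of each of the 10 members in the 4 adult MSC libraries as log2(TPM + 1), with a point for each mouse, a bar at the mean of the log2 values, whiskers of 1 SD (n = 4), and a dotted line at 1 TPM. Tgfb3, Tgfbr3, Eng, Ltbp1, Tgfbr2 and Tgfbr1 lie above the line in every mouse, Acvrl1 spreads from 0.0454 to 14.0 TPM, and Tgfb2 and Lrg1 have counts above 1 only in mouse 3.

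Among the ligands, Tgfb3 had most of the summed TPM in every mouse. Tgfb3 (ENSMUSG00000021253, chr12:86056745-86079041, minus strand, 7 exons) encodes TGF-β3, a ligand known from palate and tendon development. Its level was 38.3, 37.7, 16.01 and 12.0 TPM in mice 1 to 4, from 2282, 1418, 936 and 418 counts. Mice 1 and 2 were high and mice 3 and 4 low, and every mouse was above 10 TPM. The mean was 26.0 ± 14.0 TPM (SD, n = 4). The highest mouse had 3.21 times the level of the lowest. Of the merged exons of Tgfb3, 4.82% and 7.60% are shared with the opposite-strand transcripts Gm37804 and Gm48008, which had 0 counts in every mouse, and pairs overlapping more than 1 gene are left uncounted by the counting tool's default.

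Tgfb1, the ligand most abundant in bone matrix, was present in some mice and near 0 in others. Tgfb1 (ENSMUSG00000002603, chr7:25687002-25705077, plus strand) had 5, 121, 181 and 1 counts, or 0.0564, 2.16, 2.08 and 0.0192 TPM. Mice 2 and 3 were above 1 TPM, and mice 1 and 4 had so few counts that their 95% counting intervals ran from 1.62 to 11.7 and from 0.0253 to 5.57 counts. The mean of 1.08 ± 1.20 TPM (SD, n = 4) describes none of the mice, and it was 0.718 TPM without mouse 2. Without mouse 2 or without mouse 3, the median of Tgfb1 was no longer above 1 TPM. The merged exons of Tgfb1 span 5042 bases because they include a retained intron, while its longest protein-coding transcript has 2175 bases, so its TPM depends on which length is used.

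Tgfb2 (ENSMUSG00000039239, chr1:186622792-186705989, minus strand, 7 exons), the ligand that depends most on betaglycan, had 0, 1, 73 and 0 counts. Only mouse 3 held more than 1 count, with 0.730 TPM and a 95% counting interval of 57.2 to 91.8 counts. A count of 0 allows a level of up to 0.0294 TPM in mouse 1 and 0.0501 TPM in mouse 4, taking 3 counts as the floor. The mean over the mice was 0.186 ± 0.362 TPM (SD, n = 4) and 0.00517 TPM without mouse 3. Intervals and floors cover counting error only, because PCR copies of a cDNA are not independent molecules. In libraries of pooled cells such as these, fewer cells with a transcript and less of it per cell cannot be told apart.

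Expressed as a share of the summed TPM of the 3 ligands, Tgfb3 took 99.9%, 94.6%, 85.1% and 99.8% in mice 1 to 4 (94.8 ± 6.96%, SD, n = 4). Tgfb1 took 0.147%, 5.41%, 11.04% and 0.160%. The remainder was Tgfb2, with a largest share of 3.88% in mouse 3. The merged length of Tgfb1 includes a retained intron, so a shorter length would raise its share and lower that of Tgfb3. In mouse 3, Tgfb1 had 181 counts and Tgfb3 had 936. The summed ligand level was 38.4, 39.9, 18.8 and 12.0 TPM, so mouse 3 had both a low sum and the most mixed ligands. Within mice, Tgfb1 minus Tgfb3 was -5.22, -3.61, -2.47 and -3.67 in log2(TPM + 1), so Tgfb3 was the higher gene in 4 of 4. The mean difference was -3.74 ± 1.13 (exact two-sided sign-flip permutation p = 0.125, adjusted p = 0.167 over the 8 pairs compared). With the longest transcript as length it was -3.17 ± 1.3. With 4 mice, 0.125 is the smallest p this test can give, so no comparison of a pair could pass 0.05. Tgfb3 exceeded Tgfb2 by 4.39 ± 1.04, with the same direction in 4 of 4 mice (exact permutation p = 0.125, adjusted p = 0.167). Tgfb1 minus Tgfb2 was 0.64 ± 0.76, less than its SD (exact permutation p = 0.125, adjusted p = 0.167), and 0.31 without mouse 2. In mouse 4 both genes were under the floor, with 1 and 0 counts, so their order was not measured there.

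**Figure D2:**
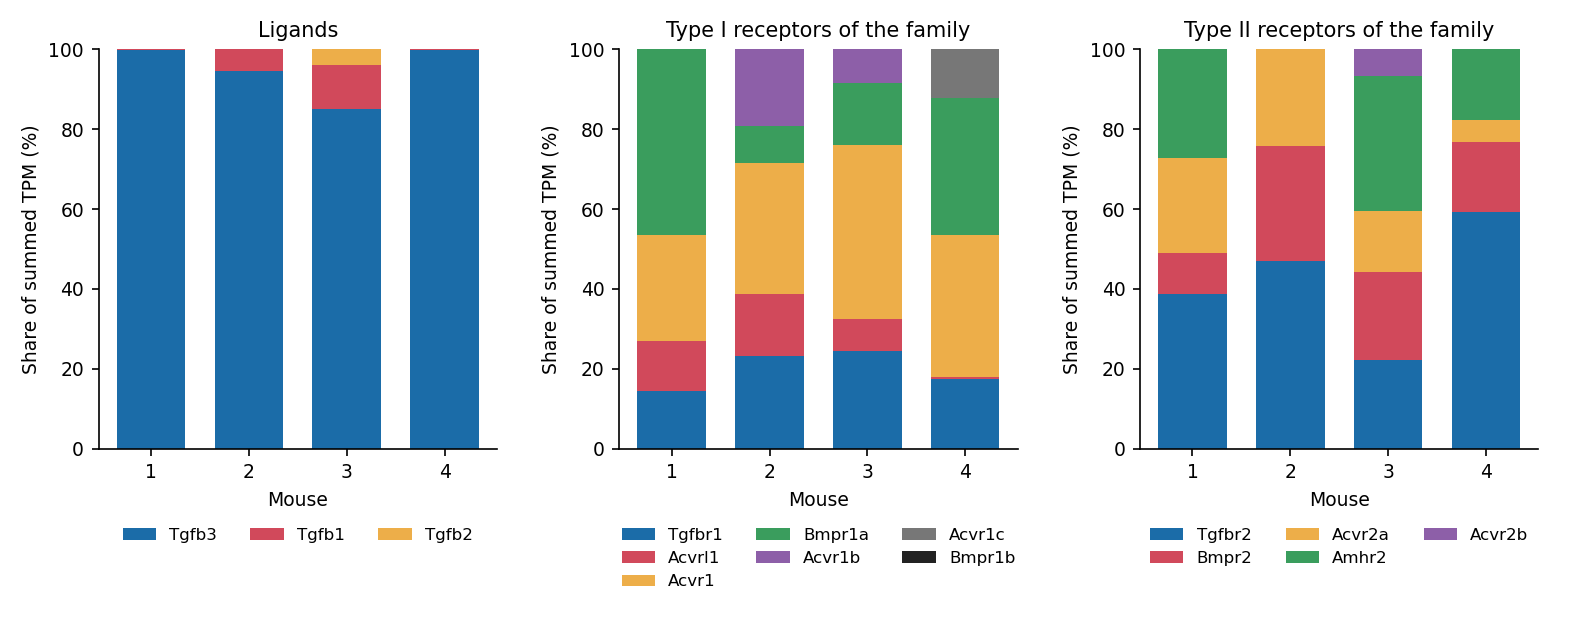
Share of summed TPM (vertical axis, percent) in each mouse (horizontal axis) for the 3 ligands, the 7 type I receptors and the 5 type II receptors, as stacked bars with a colour for each gene. Tgfb3 fills 85.1% or more of the ligand bar in every mouse, Acvrl1 takes between 0.332% and 15.5% of the type I bar, and Tgfbr2 takes between 22.1% and 59.2% of the type II bar. Shares use merged exon lengths, and that of Tgfb1 includes a retained intron, which lowers its share.

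Ltbp1 was expressed in every mouse. Ltbp1 (ENSMUSG00000001870, chr17:75005568-75392512, plus strand, 34 exons) had 968, 1686, 3279 and 1628 counts, or 5.15, 14.2, 17.7 and 14.7 TPM. Mouse 1 was low and mice 2, 3 and 4 lay close together. The mean was 13.0 ± 5.44 TPM (SD, n = 4), and its coefficient of variation of 42.0% was the smallest of the members. Ltbp1 was higher than Tgfb1 in 4 of 4 mice, by 2.54, 2.27, 2.61 and 3.95 in log2(TPM + 1), a mean of 2.84 ± 0.75 (exact permutation p = 0.125, adjusted p = 0.167). The other Ltbp genes were described after their values were seen. They were Ltbp3 with 16.7, 18.3, 22.1 and 15.6 TPM, Ltbp2 with 3.90, 25.6, 11.5 and 11.2 TPM, and Ltbp4 with at most 4.92 TPM. Ltbp3 varied least between mice. Ltbp1 made up 19.7%, 22.5%, 33.5% and 35.1% of the summed TPM of the 4 genes (27.7 ± 7.74%, SD, n = 4), and Ltbp3 made up 42.9 ± 14.9%. These genes were grouped by name, and whether each product carries latent TGF-β was not measured, so the shares are not shares of carrier. LTBP4 is known to carry mainly TGF-β1, and Ltbp4 had the smallest share, 3.51 ± 2.99%.

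The type II receptor Tgfbr2 was present in every mouse. Tgfbr2 (ENSMUSG00000032440, chr9:116084293-116175360, minus strand, 8 exons) had 2069, 1837, 980 and 865 counts, or 14.4, 20.2, 6.93 and 10.2 TPM. Mouse 2 was highest and mouse 3 lowest, a 2.91-fold range. The mean was 12.9 ± 5.71 TPM (SD, n = 4), and 80.5% of the protein-coding genes had a median below its median of 12.3 TPM. Near-identical copies of 2.13% of its longest transcript occur in 28 other genes. Among the 5 type II receptors of the TGF-β family, Tgfbr2 took 38.7%, 47.1%, 22.1% and 59.2% of the summed TPM. It was the highest of them in mice 1, 2 and 4.

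The other type II receptors bind BMPs, activins and anti-Müllerian hormone. Bmpr2, the BMP receptor, had 3.83, 12.2, 6.92 and 3.05 TPM. Acvr2a, an activin receptor, had 8.82, 10.4, 4.80 and 0.953 TPM. Both were present in every mouse and highest in mouse 2, as Tgfbr2 was. Amhr2, the anti-Müllerian hormone receptor, had 10.1, 0, 10.6 and 3.04 TPM, from 355, 0, 367 and 63 counts, and exceeded Tgfbr2 in mouse 3. Acvr2b, the other activin receptor, had 0, 1, 140 and 0 counts. Amhr2 and Acvr2b therefore had mice with 140 counts or more and mice without any.

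The type I balance between Tgfbr1 and Acvrl1 leaned to Tgfbr1 in every mouse, by an amount that differed widely. Tgfbr1 (ENSMUSG00000007613, chr4:47353222-47414931, plus strand, 9 exons) had 613, 1517, 1229 and 162 counts, or 5.33, 20.9, 10.9 and 2.40 TPM. Mouse 2 was highest and mouse 4 lowest, an 8.70-fold range, the widest of the 6 members that were above 1 TPM in every mouse. The mean was 9.87 ± 8.13 TPM (SD, n = 4) and 6.21 TPM without mouse 2. Acvrl1 (ENSMUSG00000000530, chr15:101128522-101145336, plus strand, 11 exons) had 342, 664, 258 and 2 counts, or 4.56, 14.0, 3.50 and 0.0454 TPM. It was highest in mouse 2, where Tgfbr1 was highest too, and in mouse 4 it was under the floor of 3 counts, which is 0.0681 TPM there. The mean was 5.53 ± 5.97 TPM (SD, n = 4) and 2.701 TPM without mouse 2.

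Tgfbr1 exceeded Acvrl1 by 0.19, 0.54, 1.40 and 1.70 in log2(TPM + 1) in mice 1 to 4. The mean was 0.96 ± 0.71, larger than its SD and in the same direction in 4 of 4 mice (exact permutation p = 0.125, adjusted p = 0.167). With a pseudocount of 0.1 the mean difference was 1.63 ± 1.75, smaller than its SD. As a share of the summed TPM of both receptors, Acvrl1 made up 46.1%, 40.1%, 24.3% and 1.86% (28.1 ± 19.8%, SD, n = 4). The receptors were thus near parity in mice 1 and 2, while mouse 4 held Tgfbr1 nearly alone. In mouse 4, which had the lowest depth, the 95% counting interval for Acvrl1 was 0.242 to 7.23 counts, which covers counting error and not the capture of transcripts from 100 cells. In 4 of 4 mice Tgfbr2 exceeded Acvrl1, with a mean difference of 1.55 ± 1.31 on the same scale (exact permutation p = 0.125, adjusted p = 0.167), which was 0.93 without mouse 4. Tgfbr2 and Tgfbr1 had no common order, with differences of 1.28, -0.05, -0.58 and 1.72. Their mean difference of 0.59 ± 1.09 was smaller than its SD (exact permutation p = 0.5, adjusted p = 0.5), and it was 0.36, 0.99 and 0.22 without mouse 1, mouse 3 and mouse 4.

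**Figure D3:**
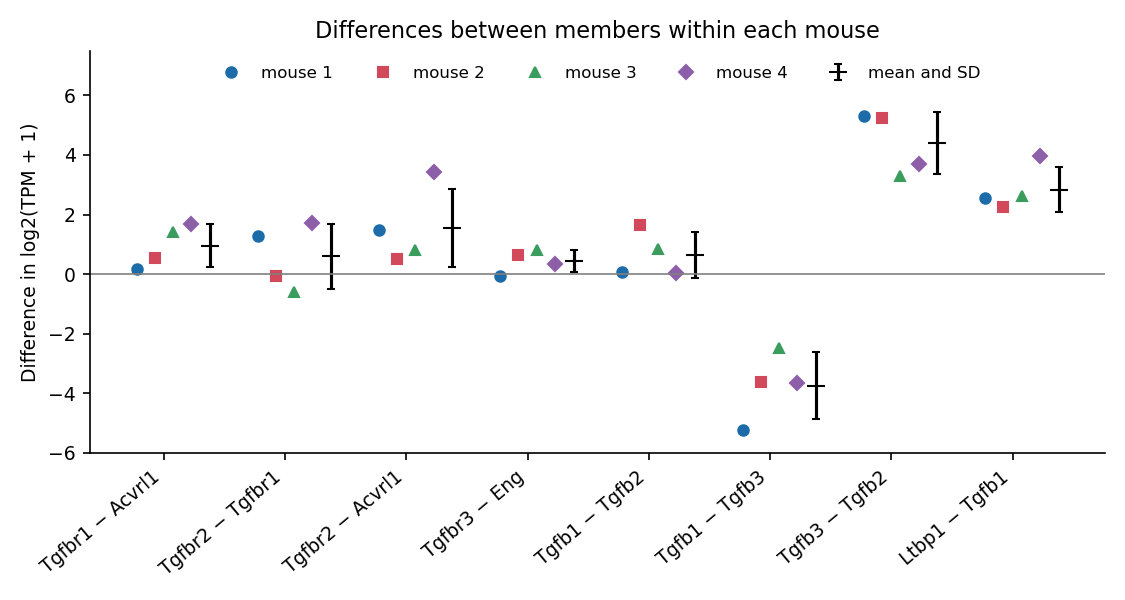
Within-mouse difference in log2(TPM + 1) for the 8 pairs compared, with a point for each mouse, a bar at the mean and whiskers of 1 SD (n = 4), and a line at 0. All mice lie on the same side of 0 in 6 of the pairs, including Tgfbr1 minus Acvrl1 (0.96 ± 0.71), though Tgfb1 minus Tgfb2 in mouse 4 rests on 1 and 0 counts, and on both sides for Tgfbr2 minus Tgfbr1 and Tgfbr3 minus Eng.

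Tgfbr1 and Acvrl1 were not the highest type I receptors of the family. Acvr1, also called ALK2, a receptor for BMPs and activins, had 9.71, 29.6, 19.4 and 4.89 TPM, and took 34.7 ± 7.13% of the summed TPM of the 7 type I receptors (SD, n = 4). Bmpr1a, also called ALK3, a BMP receptor, had 17.0, 8.32, 6.89 and 4.68 TPM. Acvr1 was above Tgfbr1 in every mouse, and Bmpr1a was above Tgfbr1 in mice 1 and 4 alone. Tgfbr1 took 14.6%, 23.2%, 24.5% and 17.5% of the sum, and Acvrl1 took 12.5%, 15.5%, 7.88% and 0.332%. The share of Tgfbr1 stayed in a narrower band than that of Acvrl1.

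The other type I receptors were absent from some libraries. Acvr1b, also called ALK4, the activin receptor, had 0, 852, 283 and 0 counts. Acvr1c, also called ALK7, a receptor for nodal and related ligands, had 0, 1, 2 and 160 counts. Bmpr1b, also called ALK6, had 1, 0, 0 and 0 counts, under the floor of 3 counts in every mouse. All 3 were thus within the floor in at least 2 mice, as Acvrl1 was in mouse 4. The 7 type I receptors summed to 36.6, 90.1, 44.4 and 13.7 TPM and the 5 type II receptors to 37.1, 42.8, 31.3 and 17.3 TPM, both highest in mouse 2 and lowest in mouse 4.

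ACVRL1 is best known from endothelial cells, and endoglin is a co-receptor known for promoting its signalling. The endothelial markers in these libraries are therefore given beside Acvrl1 and Eng. None of the 8 endothelial markers had a median above 1 TPM, and their summed level was 0.290, 1.28, 0.0501 and 1.10 TPM in mice 1 to 4. Cdh5, Kdr and Tie1, which define endothelium, were at 0 counts in every mouse. The largest endothelial counts were 58 and 42 for Tek in mice 2 and 4 and 44 for Vwf in mouse 1. Mouse 3, with the lowest endothelial sum, had 258 counts of Acvrl1 and 951 counts of Eng. Its Eng level of 13.6 TPM was the lowest of the mice. Mouse 4, with a sum of 1.10 TPM, had the lowest Acvrl1, at 0.0454 TPM. Mouse 2, with the highest endothelial sum, had the highest Acvrl1 and Eng, at 14.0 and 38.3 TPM. Mouse 2, where both genes were highest, had a summed level of 31.2 TPM for 6 pericyte and smooth muscle markers, against 2.96 to 11.6 TPM in the other mice, mostly from 1470 counts of Rgs5, while Acta2 and Mcam were at 0 in every mouse. The part of the endothelial, pericyte and smooth muscle markers in the receptor levels was not tested.

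Both co-receptors were among the highest members. Tgfbr3 (ENSMUSG00000029287, chr5:107106570-107289629, minus strand, 17 exons) had 2121, 4361, 2810 and 1320 counts, or 18.4, 59.9, 24.8 and 19.5 TPM. Mouse 2 stood well above the other mice, which lay close together. The mean was 30.7 ± 19.7 TPM (SD, n = 4) and 20.9 TPM without mouse 2. A same-strand annotated transcript, Gm43422, covers 4.54% of its merged exons and had at most 2 counts. Eng (ENSMUSG00000026814, chr2:32646595-32682669, plus strand, 15 exons) had 1358, 1725, 951 and 639 counts, or 19.1, 38.3, 13.6 and 15.3 TPM. It was again highest in mouse 2, with a mean of 21.6 ± 11.4 TPM (SD, n = 4). Fpgs, which overlaps 1.51% of the Eng exons on the opposite strand and cannot be told apart there because strand was not used in counting, had 1489, 0, 869 and 290 counts, with 0 in the mouse where Eng was highest.

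Neither co-receptor was higher in every mouse. Eng made up 50.9%, 39.0%, 35.4% and 43.9% of the summed TPM of Eng and Tgfbr3 (42.3 ± 6.70%, SD, n = 4). Tgfbr3 exceeded Eng in 3 of 4 mice, by -0.05, 0.63, 0.82 and 0.33 in log2(TPM + 1). The mean of 0.44 ± 0.38 was larger than its SD, and the test did not separate the co-receptors (exact permutation p = 0.25, adjusted p = 0.286). The mean was smaller than its SD with the longest transcript as length (0.30 ± 0.38) and without mouse 2 (0.37 ± 0.44) or mouse 3 (0.31 ± 0.34). Mouse 1 was the exception, with both co-receptors at about the same level. In mouse 4, where Acvrl1 was under the floor, Eng was still at 15.3 TPM.

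The 5 receptors and co-receptors Tgfbr1, Tgfbr2, Tgfbr3, Acvrl1 and Eng all had their highest level in mouse 2. Among the 9684 protein-coding genes with a median above 1 TPM, 26.2% were highest in that mouse. All 5 remained highest in mouse 2 after rescaling by TMM factors or by median-of-ratios factors and with the 10 highest genes left out of the TPM total, where 27.6%, 29.2% and 28.4% of the genes did. The 5 genes come from the same libraries and are not independent of each other. Mouse 2 also had the fewest genes detected, 16109. The ligand Tgfb3 and the carrier Ltbp1 did not share that pattern, being highest in mouse 1 and mouse 3.

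Lrg1 was at or below the floor in 3 of 4 mice. Lrg1 (ENSMUSG00000037095, chr17:56119678-56122001, minus strand, 2 exons) had 1, 0, 50 and 0 counts, or 0.0404, 0, 2.06 and 0 TPM. Only mouse 3 was above 1 TPM, with a 95% counting interval of 37.1 to 65.9 counts. In mice 2 and 4, where no count was found, the floor of 3 counts allows up to 0.192 and 0.206 TPM. The mean of 0.524 ± 1.02 TPM (SD, n = 4) rests on mouse 3 and was 0.0135 TPM without it. Tgfbr2, the receptor that the study pairs with Lrg1, was found in every MSC library and Lrg1 above the floor in 1 of 4. The study kept ligands and receptors by a median cutoff of 1 TPM in its MSC or macrophage samples. A median of Tgfbr2 above 1 TPM in MSCs was therefore set by that choice and says nothing of the pairing.

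Mouse 3 was also the mouse with the highest macrophage marker level. The 7 macrophage markers summed to 13.1, 18.9, 29.2 and 3.78 TPM in mice 1 to 4. Most of this was Mertk, the only macrophage marker with a median above 1 TPM, in mice 1, 2 and 4, while mouse 3 added 176 counts of C1qb and 144 counts of Cd68. Adgre1, Csf1r, C1qa and C1qc were at 0 counts in every mouse. The 8 neutrophil markers, a cell type known to store LRG1 in granules, summed to 39.7, 19.7, 6.89 and 7.84 TPM and were lowest in mouse 3. Of these, 3 had a median above 1 TPM. The largest neutrophil counts were 261 for Elane, 142 for S100a8 and 120 for Camp in mouse 1 and 114 for S100a9 in mouse 2, with Ltf and Ngp at 0 in every mouse. The 5 megakaryocyte markers, which bear on Tgfb1 because platelets carry much TGF-β1, summed to 7.95, 0, 0.683 and 0 TPM, with Itga2b at 0 in every mouse and 122 counts of Gp9 in mouse 1, where Tgfb1 had 5 counts. The part of these markers in the levels of Lrg1, Tgfb2 and Tgfb1 was not tested.

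The spread between mice was large for the members, and that of other genes at the same level was similar. Among the 4055 protein-coding genes with a mean from 10 to 100 TPM, the median coefficient of variation was 44.0%. Tgfb3 had 53.8%, Tgfbr2 44.2%, Tgfbr3 64.2%, Eng 52.9% and Ltbp1 42.0%, and between 25.7% and 53.3% of the genes at that level varied more than these. Among the 5727 genes from 1 to 10 TPM the median was 84.7%, with 82.4% for Tgfbr1, 108.0% for Acvrl1 and 111.5% for Tgfb1. Tgfb2 and Lrg1, at 194.5% and 194.9%, sat beside a median of 191.0% over the 2275 genes from 0.1 to 1 TPM.

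The rest of the pathway was read from lists of genes by role. All 6 receptor-regulated and common SMADs, which carry the signal to the nucleus, were above 1 TPM in every mouse. Smad4, the common partner, had 40.6, 17.8, 22.1 and 37.4 TPM. Smad5, of the ALK1 branch, had 13.2, 14.8, 3.60 and 15.9 TPM, and Smad3, of the ALK5 branch, had 15.2, 11.5, 6.69 and 16.8 TPM. These were the highest SMADs by median, so both branches had a SMAD in every mouse, including mouse 4 where Acvrl1 was under the floor.

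Of the 17 genes of latency and release, 13 had a median above 1 TPM and 11 were above it in every mouse. The highest were Mmp2, a protease that can release latent ligand, at 911, 477, 658 and 581 TPM, Itgb1, the β1 integrin, at 175, 214, 175 and 170 TPM, and Thbs1, a matrix glycoprotein that can activate latent TGF-β, at 74.7, 66.4, 46.5 and 97.7 TPM. Lrrc32, which holds latent TGF-β on regulatory T cells and platelets, and Itgb6, the epithelial activating integrin subunit, were under 3 counts in every mouse. Nrros, also on this list, had 422, 0, 19 and 7 counts in mice 1 to 4, and Itgb8 had 94, 1, 2 and 135. The genes of this list above 1 TPM in every mouse were proteases, matrix glycoproteins and integrin subunits. Of the 12 inhibitors, all had a median above 1 TPM and 10 were above it in every mouse. Dcn, the matrix proteoglycan decorin that binds TGF-β, reached 3179, 1791, 2317 and 3602 TPM, Fkbp1a, which holds type I receptors inactive, 255, 201, 218 and 136 TPM, and Bambi, a kinase-lacking pseudoreceptor, 289, 205, 163 and 141 TPM. Each of these 3 was above every member in every mouse.

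Known target genes of both branches were expressed. Of 7 targets of the SMAD2/3 branch, 6 had a median above 1 TPM, and the same 6 were above it in every mouse. The highest were Ccn2, a matricellular growth factor gene, at 114, 75.3, 270 and 77.2 TPM, Postn, which encodes periostin, at 78.0, 35.6, 109 and 50.2 TPM, and Pmepa1, a feedback inhibitor, at 18.8, 7.54, 22.7 and 20.1 TPM. All 3 were highest in mouse 3, where Tgfbr2 was lowest, and lowest in mouse 2, where the 5 receptors and co-receptors were highest. None of the other 4 targets was lowest in mouse 2. Smad7, Skil and Tgfbi were highest in mouse 3 and Ltbp2 in mouse 2, while Smad7, Skil and Ltbp2 were lowest in mouse 1, and Tgfbi was lowest in mouse 4, at 0 counts. Of 4 targets of the SMAD1/5 branch, all were above 1 TPM in every mouse. Id3 reached 3080, 2342, 3295 and 2386 TPM and Id2 215, 48.9, 160 and 85.7 TPM, while Id1, a direct target of ALK1 and BMP receptors, had 175, 150, 54.5 and 16.3 TPM. Smad6 had 22.0, 30.3, 17.7 and 12.9 TPM in mice 1 to 4. Id1 and Smad6 were lowest in mouse 4, as Acvrl1, Acvr1 and Bmpr1a were. The sums of the type I and of the type II receptors were lowest in mouse 4 too. Id2 and Id3 were lowest in mouse 2, where Acvrl1 and Acvr1 were highest. Gdf2 and Bmp10, which encode the circulating ligands of ALK1, BMP9 and BMP10, had 0 counts in every mouse. They are known as products of liver and heart, and their levels in marrow cells say nothing of the circulating protein.

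**Figure D4:**
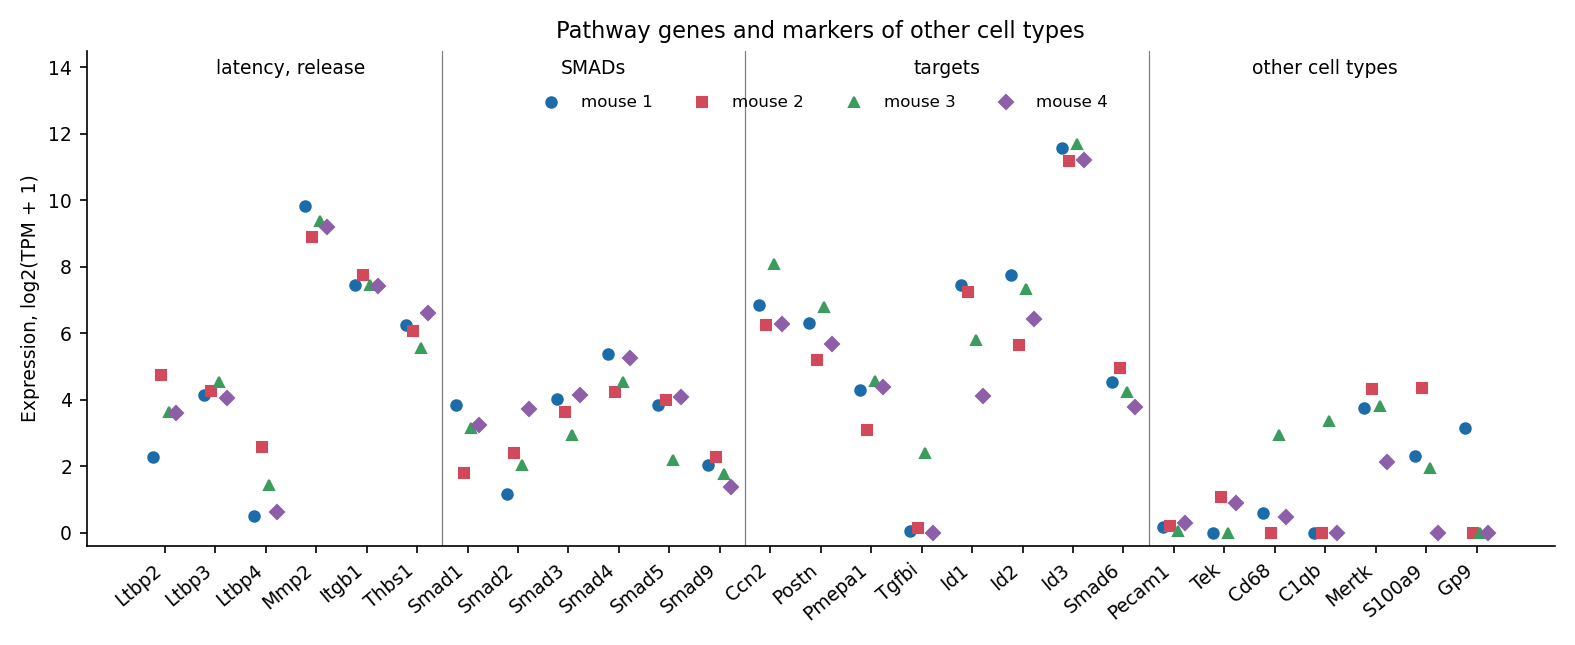
Level as log2(TPM + 1) (vertical axis) of genes of latency and release, SMADs, target genes and markers of other cell types, with a point for each mouse, and with Tgfbi and the single markers picked after their values were seen. Id3 is the highest gene, between 2342 and 3295 TPM, all 6 SMADs are above 1 TPM in every mouse, and C1qb and Gp9 are each above 1 TPM in a single mouse.

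The genes whose pattern over the 4 mice was most like that of a receptor were found by the distance between centred log2(TPM + 1) values, over 9683 protein-coding genes with a median above 1 TPM. For Tgfbr2 they were Dnajb3 (distance 0.10), Zbtb7b (0.11) and Capns1 (0.13), and 127 genes lay within 0.5. For Eng they were Inpp1 (0.11), Kif1b (0.12) and Stambpl1 (0.14), with 155 genes within 0.5. Acvrl1 had fewer near neighbours, 18 within 0.5, led by Cped1 (0.27), Uros (0.29) and Lgi4 (0.31). With only 4 points from the same libraries, many genes come close to any pattern by their order alone, and the likeness is a description.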

How the data were processed

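For each mouse, polyA RNA of 100 sorted MSCs was copied into full-length cDNA by oligo-dT priming with template switching. The cDNA was PCR-amplified, tagmented and sequenced as read pairs, with no molecular identifiers described. The authors deposited raw counts per gene. Per the labels and methods, read pairs were aligned to GRCm39 with STAR 2.7.10, and uniquely mapped pairs on exons were counted with featureCounts (Subread 1.6.5), with no strand option given. TPM was computed from these counts with the merged exon lengths of GENCODE M21 (GRCm38), joined by Ensembl identifier. That annotation is not the one of the counts, so where the exons of a gene changed between them its TPM is wrong in proportion. No coordinates were converted. A length was found for 52125 of 56980 genes, holding 96.1% to 98.2% of the counts of a library, and the other 4855 were left out. Depth was 43545349, 26050230, 42747050 and 22738604 counts for mice 1 to 4, and the detection floor was 3 counts. No pair of libraries held identical values.

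Pairs of members were compared by the within-mouse difference in log2(TPM + 1), by exact permutation of the signs (two-sided), with Benjamini-Hochberg adjustment over 8 pairs. The p-values reflect whether the differences agree in direction over these mice. They take their smallest value wherever all mice share a sign, whatever the spread. Exact Poisson intervals at 95% were computed for counts. Python 3.11.15, numpy 2.4.6, scipy 1.17.1, pandas 2.3.3, matplotlib 3.10.9, edgeR 4.0.16 in R 4.3.3 (TMM factors) and BLAST 2.17.0 were used. The computation of TPM was tested on simulated data of 52125 genes, where 50815 of 50859 genes clear of the cutoff were placed on the right side of it and all 200 raised genes were found above it. The simulated counts had Poisson noise around a profile shared by all libraries, and the same lengths were used to make and to read them. The test therefore checks the code and says nothing of the spread between mice or of wrong lengths.

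Named were all members, all type I and type II receptors, in each other pathway list the 3 genes with the highest median and those under 3 counts in every mouse, and for 3 receptors the 3 genes of nearest pattern. The remaining targets reported, the other Ltbp genes, Nrros and Itgb8 are named as well. Marker lists are given as sums with their largest genes and those at 0. The members and lists were chosen with earlier results of these data known. A gene of a target list and a stretch of sequence are not reported here. The alternatives were the longest transcript as length, no length, protein-coding genes or all but the 10 highest genes as the TPM total, TMM and median-of-ratios rescaling, a cutoff of 5 TPM, a minimum of 10 counts, a mean for the median, a pseudocount of 0.1 and leaving out each mouse.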

Additional observations from a re-analysis of the deposited data

Results flagged for a closer look

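In 8 of 39 values checked, a single mouse stood apart, with its gap to the nearest mouse making up more of the range of the 4 mice than Dixon's 95% limit allows. For normally distributed values, chance alone flags about 1 in 20 groups, or 1.95 of the 39. Genes within the floor in most mice do not have such values, so 8 against 1.95 is not a measure of excess. The values also come from the same 4 libraries, and the share of Tgfb2 repeats the flag of Tgfb2.

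Mouse 3 stood above the others for Lrg1 (gap 0.98 of the range, with 50 counts against at most 1), Tgfb2 (gap 0.979, with 73 counts against at most 1), the share of Tgfb2 among the ligands (gap 0.99) and the activin receptor Acvr2b (gap 0.989, with 140 counts against at most 1). Mouse 2 stood above the others for the co-receptor Tgfbr3 (gap 0.845, with 59.9 TPM against 18.4 to 24.8 TPM). Mouse 4 stood above the others for the type I receptor Acvr1c (gap 0.993, with 160 counts against at most 2). Mouse 1 stood above the others for the type I receptor Bmpr1b (gap 1), which rests on 1 count, and for the summed megakaryocyte markers (gap 0.914, with 7.95 TPM against at most 0.683 TPM). Of these flags, Tgfbr3 is the only gene whose other 3 mice were above the floor.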

How the results depend on the processing

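All 8 differences between pairs kept their direction under 11 alternatives each. Where all 4 mice had the same sign, only the alternatives that changed the gene length could have reversed it. For those pairs the kept direction under the other alternatives was fixed in advance. Tgfbr1 minus Acvrl1 ran from 0.71 to 1.74, Tgfbr2 minus Acvrl1 from 0.93 to 2.72, Tgfbr3 minus Eng from 0.30 to 1.12 and Tgfb1 minus Tgfb3 from -5.39 to -3.17. Tgfbr1 minus Acvrl1 and Tgfbr3 minus Eng, larger than their SD in the main setting, were not so under every alternative. None could pass 0.05 with 4 mice, so the tests say nothing of their stability. Of the members, 7 had a median above 1 TPM, without Tgfb1, after TMM or median-of-ratios rescaling and without mouse 2 or mouse 3, and 6, without Acvrl1 and Tgfb1, with a cutoff of 5 TPM or at least 10 counts in every mouse. Above 1 TPM in every mouse there were 7 members without mouse 4, which added Acvrl1, and 5 with a cutoff of 5 TPM, which removed Tgfbr1. Leaving the 10 highest genes out of the TPM total raised the means of Tgfb3, Tgfbr2, Eng and Ltbp1 by more than 1 SD, to 41.0, 20.7, 34.5 and 20.6 TPM. Without a length the values are in another unit. No paired analysis was possible because the mice form a single group, and the differences are already taken within mice. The lowest libraries held 0 or 1 count of Lrg1, Tgfb1 and Tgfb2, where the floor of 3 counts sets what can be said, and mouse 1, with the highest depth, held 1, 5 and 0 counts.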
